A study of Mus musculus with 6 samples.

Results

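The genes described here are the embryonic globins and a set of genes of red blood cells, measured in mouse embryonic back skin with and without Fzd6. The 10 genes were Hbb-bh1, Hbb-y, Hba-x, Hba-a1, Hba-a2, Hbb-b2, Alas2, Slc4a1, Klf1 and Gata1, out of 18193 genes that the array reads with a probe set of their own. Every probe set that the platform annotation assigns to them was used, 21 in all, of which 17 belong to 1 gene and 4 are shared by near-identical globin genes. RNA of back skin at E15.5 was hybridised to Affymetrix MOE430 2.0 arrays, 3 from Fzd6 +/- embryos (control) and 3 from Fzd6 -/- embryos (knockout), all of a C57BL6/129 mixed strain. The controls thus carry 1 mutant copy of Fzd6, which encodes a Frizzled receptor of planar cell polarity, and wild-type skin was not analysed here. The labels call the arrays biological replicates, and do not say whether an array came from 1 embryo or a pool.

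Mouse red cells come in 2 waves. Primitive erythroid cells arise in the yolk sac and carry embryonic globins, namely zeta (Hba-x) in the alpha family and betaH1 (Hbb-bh1) and epsilon-y (Hbb-y) in the beta family. Definitive cells from the fetal liver carry the adult alpha and beta globins and replace the primitive cells in the circulation during the later part of gestation, so the balance of embryonic to adult globin mRNA in blood changes with developmental age. Skin is not known as a site of red cell formation, and it contains blood in its vessels.

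The targeted gene was read first. Fzd6 was at 9.50, 9.51 and 9.11 in the controls and 9.07, 9.01 and 8.71 in the knockouts in its brightest probe set, 1417301_at, and at 6.09 to 6.22 against 5.36 to 5.53 in 1448662_at. The knockouts lay below the controls in both (-0.44 and -0.67, limma adjusted p = 0.909 and 0.864), while a further set, 1458904_at, differed by -0.0097. Whether these probe sets read the deleted sequence is not known here, so they are a limited check of the labels. Correlations between arrays over all probe sets were 0.985 to 0.996, and no pair of arrays was a duplicate. Y-linked genes were low in control 2 and knockout 3, at means of 3.12 and 3.15, and stood at 7.88 to 8.39 elsewhere. Of the markers of skin, Krt14, a keratin of the basal epidermis, read 12.2 to 13.4 and the collagen Col1a1 9.94 to 12.1. Alb, the main plasma protein made by the liver, read 4.74 to 4.95, below the array medians of 5.99 to 6.03.

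The globin genes lie in 2 clusters. The beta cluster on chromosome 7 holds Hbb-y, Hbb-bh1 and the adult genes Hbb-bs and Hbb-bt, and the alpha cluster on chromosome 11 holds Hba-x, Hba-a1 and Hba-a2, in the gene table of GRCm38.p6. Hbb-b1 and Hbb-b2 are the adult beta genes of another form of the cluster that some inbred strains carry. Promoter windows of 1 embryonic and 1 adult gene of each cluster are shown because these are the genes whose transcripts are set against each other below. Each runs from 250 bases before to 50 after the start of the gene on its own strand, is taken from RefSeq (GRCm38.p6), and has in capitals each CACCC, the core of the site bound by KLF1.
Hbb-y (embryonic, chr7:103853158-103853457, minus strand): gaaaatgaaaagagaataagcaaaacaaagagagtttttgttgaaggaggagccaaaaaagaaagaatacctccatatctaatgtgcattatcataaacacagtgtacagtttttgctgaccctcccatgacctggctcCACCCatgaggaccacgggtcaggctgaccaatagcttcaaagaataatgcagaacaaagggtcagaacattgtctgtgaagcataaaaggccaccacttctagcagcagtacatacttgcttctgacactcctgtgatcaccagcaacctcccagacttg
Hbb-bs (adult, chr7:103827879-103828178, minus strand): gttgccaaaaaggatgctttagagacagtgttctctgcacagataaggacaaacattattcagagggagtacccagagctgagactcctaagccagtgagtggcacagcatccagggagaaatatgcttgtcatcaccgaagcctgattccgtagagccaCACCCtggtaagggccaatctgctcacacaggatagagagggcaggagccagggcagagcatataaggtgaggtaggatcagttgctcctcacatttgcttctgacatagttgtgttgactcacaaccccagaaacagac
Hba-x (embryonic, chr11:32276350-32276649, plus strand): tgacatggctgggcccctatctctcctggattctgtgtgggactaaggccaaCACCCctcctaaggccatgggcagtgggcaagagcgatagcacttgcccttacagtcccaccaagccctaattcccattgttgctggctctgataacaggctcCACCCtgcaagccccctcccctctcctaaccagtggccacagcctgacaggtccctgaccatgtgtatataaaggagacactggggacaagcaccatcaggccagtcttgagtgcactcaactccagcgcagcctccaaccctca
Hba-a1 (adult, chr11:32283422-32283721, plus strand): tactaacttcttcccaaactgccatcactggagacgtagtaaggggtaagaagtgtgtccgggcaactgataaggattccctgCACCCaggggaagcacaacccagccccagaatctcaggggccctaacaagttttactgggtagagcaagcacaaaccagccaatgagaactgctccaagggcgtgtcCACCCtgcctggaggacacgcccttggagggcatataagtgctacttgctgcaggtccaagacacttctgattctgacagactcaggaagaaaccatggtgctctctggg
CACCC was searched on both strands (as CACCC and GGGTG), and the copy nearest the start began 111 bases before it in Hbb-y, 90 in Hbb-bs, 95 in Hba-x and 60 in Hba-a1. The core of the GATA1 site, GATAA or its complement TTATC, was found 1 time in each of the 4 windows. CCAAT or its complement ATTGG was found 1 time in Hbb-y, Hbb-bs and Hba-a1 and in no place of the Hba-x window. Of all 32851 promoter windows of the same length, 57.5% held CACCC, 25.4% GATAA and 37.4% CCAAT on either strand, so these matches are common and are given as a description. The windows of Hba-a1 and Hba-a2 share a stretch of 297 bases.

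The embryonic globins had lower values in knockout than in control skin, in all 7 of their probe sets, with differences (knockout minus control, log2) between -0.68 and -0.36. The adult globins had higher values in 7 of 8 probe sets, with differences between -0.03 and 0.88 over the 8 and a median of 0.11. Of the other red cell genes, Alas2, Slc4a1 and Klf1 (0.12) had higher values and Gata1 (-0.14) lower values. The adult sets that name Hba-a1 or Hba-a2 alone, at low mean levels of 4.44 and 6.04, were higher by only 0.0048 and 0.02. Of all 45037 probe sets, 22241 had lower and 22796 higher values in the knockout. None of the 21 probe sets passed limma's adjusted threshold of 0.05 over all 45037 probe sets (adjusted p between 0.909 and 0.998), and 0.0% of all probe sets passed. At an unadjusted limma p under 0.05 there were 6 of the 7 embryonic globin probe sets, all lower, where 2.63% of all probe sets were lower at this p. The differences are therefore given as values with their spread.

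Hbb-y, the epsilon-y chain of embryonic hemoglobin, was read by 3 probe sets, and in each all 3 knockout arrays lay below all 3 controls. Probe set 1450621_a_at read 12.10, 12.16 and 11.54 (log2 level) in controls 1 to 3 and 11.10, 11.30 and 11.37 in knockouts 1 to 3. Controls 1 and 2 stood high, and control 3 lay close above the knockouts. The group means were 11.93 ± 0.34 and 11.26 ± 0.14 (SD, n = 3 each), a difference of -0.68 (95% confidence interval -1.08 to -0.27, limma unadjusted p = 0.00512, adjusted p = 0.909). On the linear scale the knockout level was 62.6% of the control level (47.3 to 82.8%). Only 25 of the 45037 probe sets, itself included, had a difference as low or lower.

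The other Hbb-y probe sets gave nearly the same picture at a smaller size. Probe set 1436823_x_at read 13.13, 13.22 and 12.74 in the controls and 12.29, 12.62 and 12.69 in the knockouts, a difference of -0.50 (-0.87 to -0.13). The third, 1436717_x_at, gave -0.49 (-0.85 to -0.13), with knockouts at 12.28 to 12.63 and controls at 12.70 to 13.18. The gap between the lowest control and the highest knockout was thus narrow in both, and it was set by control 3 and knockout 3. In each of the 3 sets the exact permutation test gave p = 0.1, the smallest that 3 against 3 arrays allow.

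Hbb-bh1, the betaH1 chain of the earliest embryonic hemoglobin, followed the same order. Its brightest probe set, 1450736_a_at, read 7.37, 7.47 and 6.98 in the controls and 6.75, 6.58 and 6.94 in the knockouts. Here too control 3 lay nearest the knockouts, and knockout 2 was the lowest array. The difference was -0.52 (-0.87 to -0.16, limma unadjusted p = 0.0102, adjusted p = 0.909), or 69.9% of the control level (54.8 to 89.3%). In probe set 1437990_x_at the knockouts read 6.63 to 6.73 and the controls 6.83 to 7.17, with no overlap and a difference of -0.36. In 1437810_a_at knockout 3, at 6.79, lay above control 3, at 6.73, and the difference was -0.38.

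Hba-x, the zeta chain of embryonic hemoglobin, was read by probe set 1448716_at. Values were 8.97, 9.92 and 9.09 in the controls and 7.92, 9.18 and 9.11 in the knockouts. The groups overlapped: control 2 was far above the rest, knockout 1 far below, and the other 4 arrays lay within 8.97 to 9.18. The difference of -0.59 had a wide interval (-1.47 to 0.29, limma unadjusted p = 0.16, adjusted p = 0.915) and was -0.18 without knockout 1. Knockout 1 also had the lowest endothelial values, at a mean of 7.26 over 15 vessel genes against 7.67 in control 1 and 8.32 to 8.41 in the other 4 arrays, and the part of this in the Hba-x value was not tested. Fewer cells of a type and less RNA per cell cannot be told apart in RNA of whole skin.

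**Figure D1:**
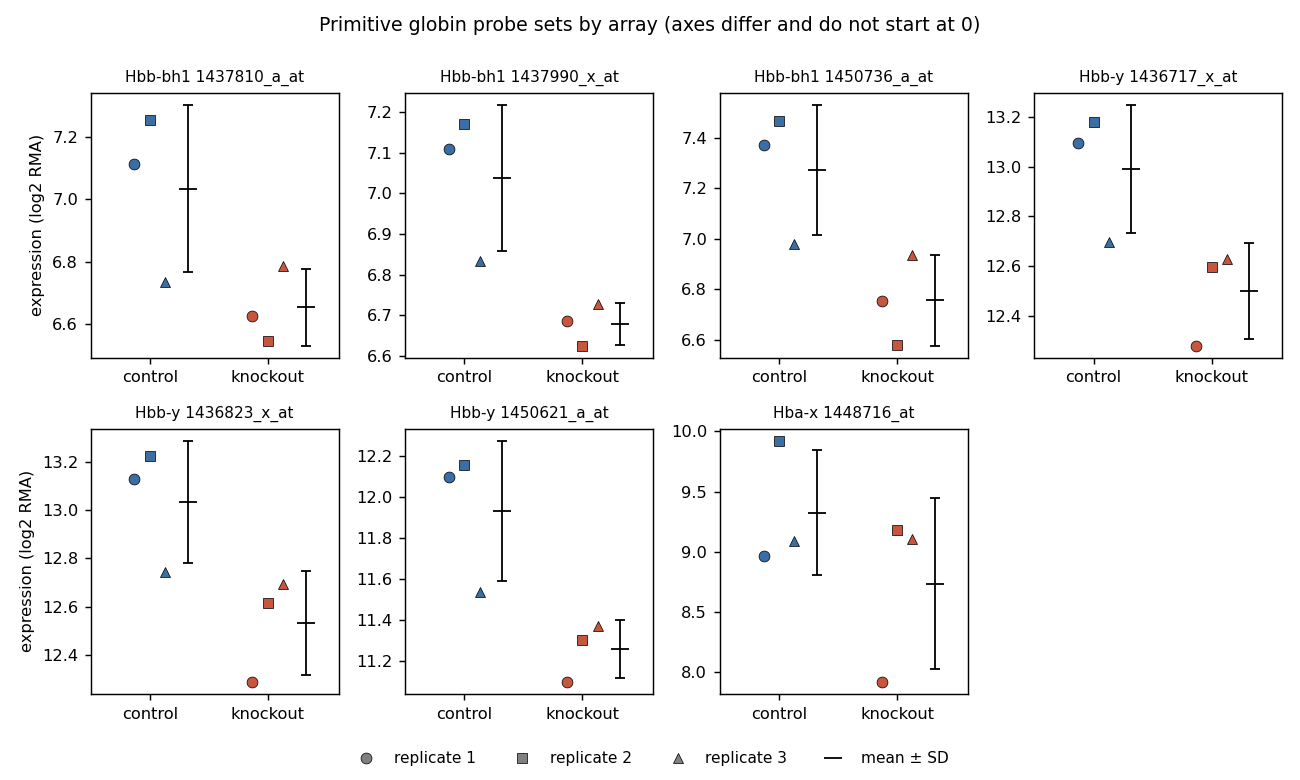
Level (log2 RMA) of each embryonic globin probe set in the 3 control and 3 knockout arrays, with the mean and SD of each group beside the points. In 5 of the 7 panels the knockout points all lie below the control points, with control 3 (blue triangle) the lowest control in all panels but that of Hba-x.

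The groups did not overlap, with the knockout lower, in 5 of the 7 embryonic globin probe sets, where 5.0% of all probe sets did so. The probe sets of a gene read the same RNA and are not separate evidence. The size of the difference varied with the replicate number in the labels. For Hbb-y in 1450621_a_at, knockout minus control was -1.01 in number 1, -0.86 in number 2 and -0.17 in number 3. Hbb-bh1 gave -0.62, -0.89 and -0.04 in 1450736_a_at, and Hba-x gave -1.05, -0.74 and 0.02. In all 7 embryonic globin probe sets number 3 had the smallest difference of the 3 numbers, as it had in 37.5% of all probe sets.

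With the replicate number as a block, the embryonic globins again did not pass, with adjusted p between 0.335 and 0.375 in limma. Their unadjusted p in that fit was under 0.05 in 7 of 7 probe sets, as it was in 12.0% of all probe sets, and that of Hba-x was 0.0143. Over all probe sets 3 passed with the block against 0 without it, or 0.00666%, and none of them belonged to the 10 genes.

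The brightest adult globin probe sets reached the highest value on any array, 14.8, where array signals are known to saturate. The brightest alpha globin probe set, 1428361_x_at, which reads Hba-a1 and Hba-a2 together, was at 14.63, 14.62 and 14.77 in the controls and 14.69, 14.81 and 14.82 in the knockouts. Knockout 1 lay below control 3, so the groups overlapped, and the difference was 0.10 (-0.09 to 0.30, limma adjusted p = 0.928). Probe set 1452757_s_at gave 0.12 (-0.09 to 0.32). A probe set further from the top, 1417714_x_at, read 12.23, 11.88 and 12.64 in the controls and 12.31, 12.59 and 12.64 in the knockouts, a difference of 0.26 (-0.18 to 0.71). In it control 2 was the lowest array, and the difference was 0.08 without control 2 and 0.46 without control 3. The probe sets that name Hba-a1 alone (1453574_at, at 4.36 to 4.56) and Hba-a2 alone (1427219_at, at 5.76 to 6.33) differed by 0.0048 and 0.02.

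Adult beta globin was read by 1 probe set shared by Hbb-bt, Hbb-bs, Hbb-b1 and Hbb-b2 and by 2 sets that name Hbb-b2 alone. The shared set, 1417184_s_at, was at 14.34, 14.11 and 14.42 in the controls and 14.40, 14.47 and 14.49 in the knockouts, and differed by 0.16 (-0.07 to 0.40, limma adjusted p = 0.914), or by 0.07 without control 2. Hbb-b2 in 1427866_x_at varied far more, at 8.81, 7.58 and 9.30 in the controls and 9.60, 9.12 and 9.62 in the knockouts. Control 2 was lowest by a wide margin, and knockout 2 lay below control 3. The difference there was the largest positive one among the 21 probe sets, 0.88 (-0.05 to 1.82, limma unadjusted p = 0.0606, adjusted p = 0.909), and it was 0.39 without control 2. Within the replicate numbers it was 0.80, 1.54 and 0.32, and with the number as a block limma gave an unadjusted p of 0.00307 and an adjusted p of 0.335. The 3 shared alpha sets and the shared beta set also had higher knockout values in each number, with adjusted p between 0.485 and 0.616 in the blocked limma fit. The other Hbb-b2 set, 1427865_at, carries the same accession in the annotation but read 7.97 to 8.29 with a difference of -0.03 (-0.29 to 0.23), so the 2 sets disagree. Which form of the beta cluster each embryo of the mixed strain carried was not tested.

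Alas2 makes the erythroid form of the enzyme that starts heme synthesis. It read 8.33, 7.60 and 9.15 in the controls and 8.74, 8.89 and 9.03 in the knockouts in its only probe set. The controls spanned a wider range than the knockouts and held both the lowest and the highest array. The difference was 0.53 (-0.27 to 1.32, limma adjusted p = 0.916), and it was 0.15 without control 2 and 0.92 without control 3. Within the replicate numbers it was 0.41, 1.29 and -0.12, with an adjusted p of 0.426 in the blocked limma fit.

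Slc4a1, the band 3 anion exchanger of the red cell membrane, had 3 probe sets with differences between 0.22 and 0.62. The largest was in 1434502_x_at, at 6.27, 6.39 and 7.63 in the controls and 6.77, 7.59 and 7.79 in the knockouts (0.62, -0.31 to 1.55, limma adjusted p = 0.916). Controls 1 and 2 and knockout 1 were low, and control 3 was among the high arrays. The difference was 0.37 without control 1 and 1.05 without control 3. Within the replicate numbers it was 0.50, 1.20 and 0.16, and the blocked limma fit gave an unadjusted p of 0.00956 and an adjusted p of 0.34. A further set, 1416464_at, had the same 3 low arrays, at 6.61 to 6.67, and differed by 0.37 (-0.36 to 1.10), or by 0.18 without knockout 3 and 0.68 without knockout 1. In the dimmest set, 1431743_a_at, at 4.05 to 4.48, the groups did not overlap, with the knockout higher, as was the case in 6.55% of all probe sets, and the difference was 0.22 (0.01 to 0.44, limma adjusted p = 0.909). Its unadjusted limma p of 0.0433 was under 0.05, where 2.58% of all probe sets were higher at this p.

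The erythroid transcription factors showed small differences of opposite sign. Klf1, the activator that binds CACCC sites of adult beta globin, was at 6.22, 6.04 and 5.96 in the controls and 6.26, 6.13 and 6.20 in the knockouts in 1418600_at (0.12, -0.10 to 0.35, limma adjusted p = 0.919). Gata1, the GATA factor of red cells, megakaryocytes and mast cells, was at 6.10, 6.29 and 6.64 in the controls and 5.89, 6.37 and 6.34 in the knockouts in 1449232_at (-0.14, -0.56 to 0.27, limma adjusted p = 0.95). Both lay close to the array medians of 5.99 to 6.03. The groups overlapped in both genes. Klf1 differed by 0.07 without control 3 and 0.20 without control 1, and Gata1 by 0.01 without knockout 1 and -0.26 without control 1.

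**Figure D2:**
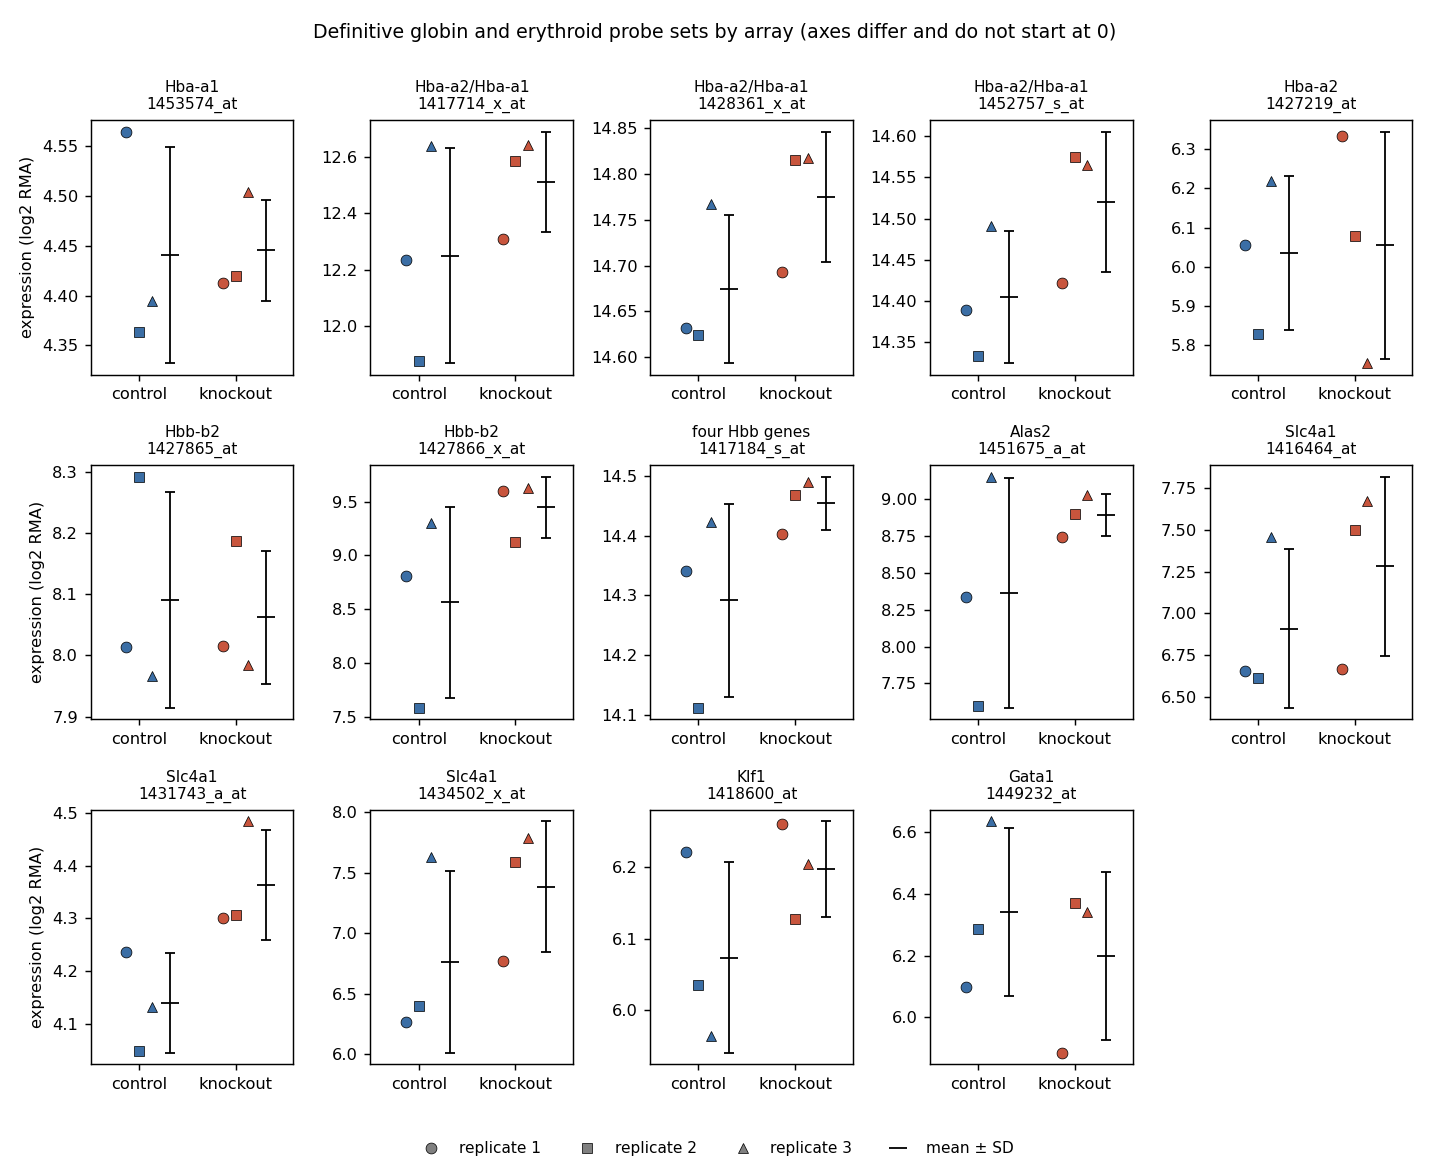
Level (log2 RMA) of each adult globin probe set and each probe set of Alas2, Slc4a1, Klf1 and Gata1 in the 3 control and 3 knockout arrays, with the mean and SD of each group. The groups overlap in every panel but that of Slc4a1 1431743_a_at, and control 2 is the lowest point in the shared alpha and beta sets, in Hbb-b2 1427866_x_at and in Alas2.

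**Figure D3:**
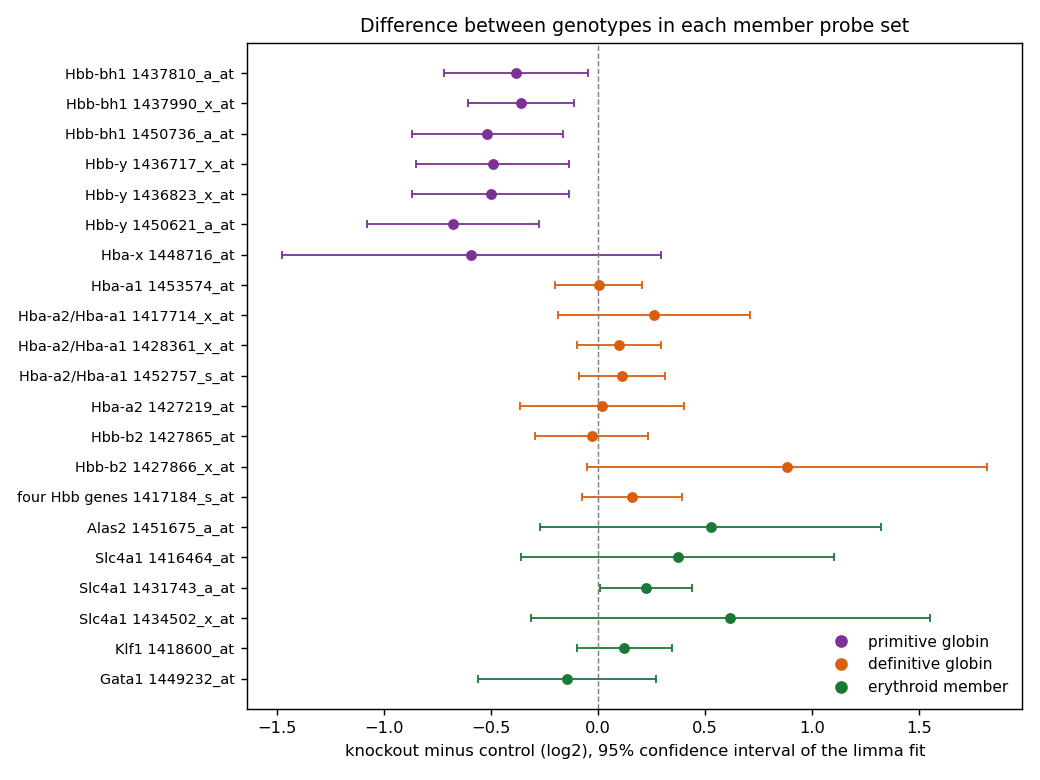
Knockout minus control (log2) for each of the 21 probe sets, with the 95% confidence interval of the limma fit. The 7 embryonic globin sets lie between -0.68 and -0.36 and the 6 of Hbb-bh1 and Hbb-y have intervals below 0, which are not adjusted for the number of probe sets.

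The embryonic and adult globins were then set against each other within each array. For each array the mean deviation of Hbb-bh1, Hbb-y and Hba-x from their 6-array means, in the brightest probe set of each, was compared with that of the shared alpha and beta sets. This contrast was 0.28, 0.78 and -0.05 (log2) in controls 1 to 3 and -0.62, -0.24 and -0.13 in knockouts 1 to 3. All knockouts lay below all controls, but control 3 lay nearer to knockouts 2 and 3 than to the other controls. The means were 0.33 ± 0.42 in control and -0.33 ± 0.26 in knockout (SD, n = 3 each), a difference of -0.67, for which no p is given because it is a score over chosen genes. Within the replicate numbers the difference was -0.90, -1.02 and -0.08.

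The same contrast was formed within each cluster. Hbb-y minus the shared beta set differed by -0.66 between the groups, with controls at 0.38, 0.70 and -0.09 and knockouts at -0.52, -0.26 and -0.21. Hba-x minus the shared alpha set differed by -0.69, but its groups overlapped, at 0.03, 0.99 and 0.01 in the controls and -1.08, 0.06 and -0.02 in the knockouts. The mean difference was -0.54 for the embryonic and 0.13 for the adult globins. The adult sets used here lie near the top of the range of the arrays, where signals are known to saturate, so the size of these contrasts and the share of each side in them cannot be read. Of the adult sets further from the top, 1417714_x_at (0.26) and Hbb-b2 in 1427866_x_at (0.88) differed by more. Hbb-b2 in 1427865_at (-0.03) and the sets that name Hba-a2 alone (0.02) and Hba-a1 alone (0.0048) differed by less. The last 2 sets had mean levels of 6.04 and 4.44, near and below the array medians of 5.99 to 6.03. The shared alpha sets had means of 12.4 to 14.7, so the differences of these 2 dim sets say little about alpha globin.

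Tissue lists were read in the same arrays. The list of 20 suprabasal epidermal genes, of the layers that differentiate late, deviated by -0.24, -0.31 and -0.10 in controls 1 to 3 and 0.58, 0.09 and -0.02 in knockouts 1 to 3. Mast cell genes, 9 measured, deviated by -0.32, -0.44 and 0.07 in the controls and 0.30, 0.13 and 0.27 in the knockouts. In both lists, as in the globin contrast, control 2 and knockout 1 were at opposite ends and control 3 was the control nearest the knockouts. The vessel list did not follow this order: it was low in control 1 (-0.41) and knockout 1 (-0.81) and between 0.24 and 0.34 in the other 4 arrays. Nor did the basal epidermis list, which was lowest in control 3 (-0.44) and at 0.11 in control 2. The skeletal muscle list was highest in control 2 (0.43) and lowest in knockout 2 (-0.57). The labels give the same embryonic day for all arrays, and the part of these lists in the globin contrast was not tested.

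**Figure D4:**
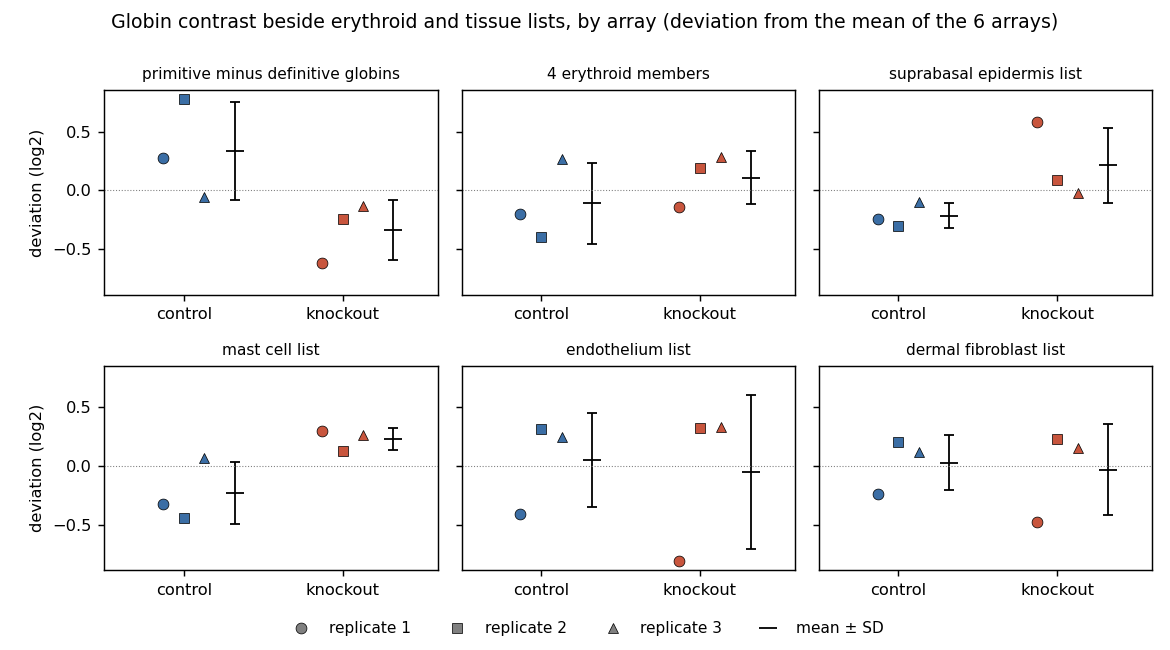
Deviation from the 6-array mean (log2) of the embryonic minus adult globin contrast, of Alas2, Slc4a1, Klf1 and Gata1, and of 4 tissue lists, by array, with the mean and SD of each group. The contrast separates the groups with control 3 at -0.05 beside knockout 3 at -0.13, while the endothelium and dermal fibroblast lists are lowest in knockout 1.

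Other genes of the red cell program were read in 6 lists with 57 measured genes, 1 of them in 2 lists, and 1 probe set a gene. Of these, 43 had higher and 14 lower values in the knockout, with a median difference of 0.07, beside 9528 of 18193 genes with higher values and a median of 0.007 over all genes. None passed the adjusted threshold in limma, as was the case for 0.0% of all genes, and 1 had an unadjusted p under 0.05, beside 5.07% of all genes. Some of these genes are also made by other cells of the skin, so the lists do not read red cells alone. Of the 57 genes, 10 lay below the median level of all probe sets, among them Epb42, Icam4, Nfe2, Steap3 and Tspo2, which are named below. The lean to higher values was not particular to them. It was also seen in fetal liver (8 of 9 genes), platelet (6 of 8), mast cell (8 of 9), suprabasal (18 of 20) and basal epidermis (8 of 10) lists. Fewer genes were higher in the endothelium (2 of 15), macrophage (5 of 15), dermal fibroblast (3 of 9) and skeletal muscle (3 of 10) lists.

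Enzymes and maturation genes of late red cells had higher values in 15 of 16 genes, with a median of 0.10. Over all genes 52.4% had higher values, with a median of 0.007. Bpgm, which makes the effector that lowers the oxygen affinity of hemoglobin, was at 8.49, 8.24 and 9.20 in the controls and 9.19, 9.04 and 9.21 in the knockouts (0.50, -0.02 to 1.03, limma adjusted p = 0.909). Controls 1 and 2 were the low arrays. Tspo2, a membrane protein of red cell precursors, differed by 0.15 and the carbonic anhydrase Car2 by 0.19. Iron uptake genes had higher values in 5 of 5, led by Slc25a37, the mitochondrial iron importer of red cell precursors, at 8.55, 8.33 and 9.37 in the controls and 9.52, 9.13 and 9.10 in the knockouts (0.50, -0.11 to 1.12). Tfr2, a transferrin receptor, differed by 0.21 and the iron reductase Steap3 by 0.11, while Slc11a2 (0.03) and Tfrc (0.002) lay close to no difference. The iron uptake list deviated by 0.02, -0.27 and 0.004 in controls 1 to 3 and 0.31, -0.06 and 0.008 in knockouts 1 to 3. Control 2 and knockout 1 thus stood apart from the other arrays. Bpgm and Slc25a37 thus had low controls 1 and 2 in common with Slc4a1, but knockout 1 was high in both.

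Heme synthesis beyond Alas2 had higher values in 7 of 10 genes with a median of 0.03. Ppox, the penultimate enzyme of the pathway, differed by -0.18 (-0.37 to 0.01) with all knockouts below all controls, as in 4.31% of all genes, while Cpox, the enzyme before it, differed by 0.18 and Uros by 0.17. Red cell membrane genes had higher values in 7 of 13, with Icam4, an adhesion protein of red cells, at 0.31 (0.02 to 0.59), the glycophorin Gypc at -0.36 (-0.76 to 0.04) and the spectrin Sptb at 0.18. Epb42, the membrane protein that binds band 3, was the only gene of the 57 with all knockouts above all controls (0.13), as in 6.99% of all genes, and was named after its values were seen. It read 4.55 to 4.87, below the median level. Erythroid factors had 7 of 10 higher, with Myb at 0.13, the factor Nfe2 at 0.10 and the GATA1 cofactor Zfpm1 at 0.10. Of 4 receptor and signalling genes, 3 had higher values: Stat5a at 0.32 (-0.04 to 0.68), Epor, the erythropoietin receptor, at 0.10, and Kit, which mast cells and melanocytes also make, at 0.25.

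**Figure D5:**
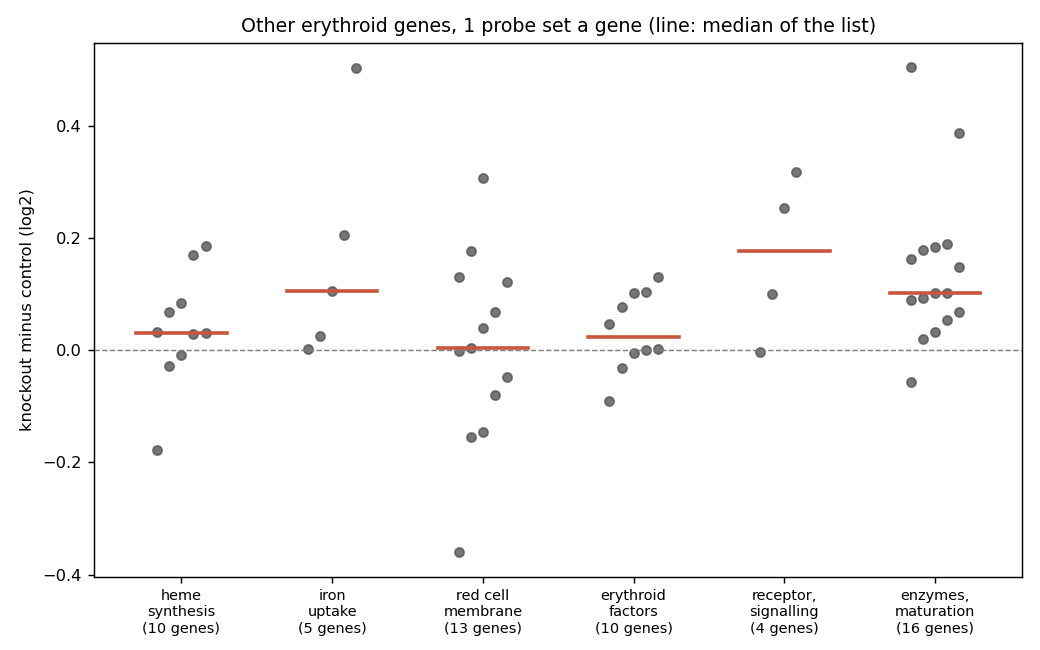
Knockout minus control (log2) of each measured gene in 6 lists of red cell genes, with the median of each list as a line. The points lie between -0.36 and 0.50, with 15 of 16 enzymes and maturation genes and 5 of 5 iron uptake genes above 0, beside 52.4% of all genes.

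Other blood and liver lists were read beside these. The list of 9 fetal liver genes, of which 7 lay below the median level, had means of 5.01 to 5.20 in the controls and 5.08 to 5.28 in the knockouts. Platelet genes, 8 measured, had means of 6.20 to 6.48 in the controls and 6.43 to 6.62 in the knockouts. Macrophage genes, 15 measured, had means of 7.93 to 8.43 and 8.11 to 8.28. Control 2 was the lowest array in all 3 lists, and their part in the globin and erythroid values was not tested. Control 2 and knockout 3, the arrays with low Y-linked genes, lay far apart in the globin contrast (0.78 and -0.13).

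The pattern of the embryonic globins over the arrays was compared with that of other genes, among 6436 named probe sets above the median level and with an SD of at least 0.2 over the 6 arrays. The likeness is Pearson's r over 6 arrays, given as a description, and high values are common when so many probe sets are searched over so few arrays. Hmga2, a chromatin architectural protein made mainly in embryos, was most alike in 1450780_s_at (r = 0.992), with 9.08, 9.61 and 8.95 in the controls and 8.30, 8.85 and 8.93 in the knockouts. Its 3 other probe sets gave r of 0.874 to 0.984 and differences of -0.52 to -0.30. Then came the protease Adamts15 (0.990), the noncoding RNA Airn (0.987), Ppp1r9a (0.984), AW551984 (0.983), Armcx2 (0.977), Rreb1 (0.976) and Nisch (0.971). The lower knockout values of all these genes in that probe set follow from the choice, because the pattern searched for was itself lower in the knockout. Other probe sets of the same gene had lower r, down to -0.75 for Rreb1, 0.05 for Ppp1r9a, 0.37 for Nisch, 0.49 for Airn, 0.65 for AW551984 and 0.83 for Armcx2, and Adamts15 had no other named probe set.

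Alas2, Slc4a1, Klf1 and Gata1 together deviated by -0.20, -0.40 and 0.27 in the controls and -0.14, 0.19 and 0.28 in the knockouts, so that controls 1 and 2 and knockout 1 were low. AI467606 (r = 0.993), the protease Mmp23 (0.980), the sulfotransferase Sult1a1 (0.975), Slc45a3 (0.973), Pcp4l1 (0.966), the amine oxidase Maob (0.965), Cmtm7 (0.963) and Tent5c (0.955) were most alike. Tent5c was also in the list of maturation genes and read 6.63, 6.76 and 7.90 in the controls and 6.96, 7.63 and 7.87 in the knockouts, but its other probe set had r of 0.34. The other sets of AI467606, Mmp23, Slc45a3 and Cmtm7 had r of 0.80 to 0.95, and Sult1a1, Pcp4l1 and Maob had no other named set.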

How the data were processed

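Total RNA of back skin from 6 samples, 3 Fzd6 +/- and 3 Fzd6 -/-, was measured on Affymetrix arrays. The deposited values are log2 expression summaries made by the authors with RMA, per the submitters' processing notes, which give no version. The log base is not stated and was read as log2 from the range of 2.39 to 14.8. RMA includes quantile normalization, which gives arrays nearly the same distribution; detection calls were not used here.

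All 64 AFFX control sets were left out and 45037 probe sets tested with no filter on low values. Names came from the platform annotation, updated by Entrez identifier to the GRCm38.p6 gene table (34741 of 34945 probe sets with 1 symbol matched; 932 had several and 9160 none). For lists, the probe set with the highest mean stood for a gene, and 57 of 65 list genes were measured. Each probe set was fitted by lmFit and eBayes of limma (version 3.58.1, under R 4.3.3; two-sided, prior degrees of freedom 3.43 beside 4 residual), Benjamini-Hochberg adjusted over all probe sets. The test was checked on simulated data. With 3 arrays a group the exact permutation test cannot go below p = 0.1.

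The deviations of same-numbered arrays from their group means had correlations of 0.568, 0.359 and 0.124, all over 0.1. The numbers were therefore taken to pair the arrays, from the data and not from the labels. Control 2 correlated more with knockout 3 (0.422), and control 3 with knockout 2 gave 0.017. The pairing of numbers 2 and 3 is thus uncertain. P-values measure the spread between these samples. The genes and lists were chosen with earlier results of these data known. The named genes are the 10 members, the 3 with the smallest p in each list, the 8 most alike in pattern and Fzd6, and single markers named beside a list (Alb, Krt14, Col1a1, Epb42) were chosen after their values were seen. Alternatives tried are given at the end. Plots used Python 3.11.15 with matplotlib 3.10.9.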

Additional observations from a re-analysis of the deposited data

How the results depend on the processing

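Over 14 alternatives the embryonic globin probe sets kept negative differences in all 98 values (-0.87 to -0.18), and no probe set of the 10 genes passed the adjusted threshold under any. The replicate block, a variance trend and a limit to probe sets above the median level cannot change a difference, so their values repeat the main fit. Where all knockouts lay below all controls, leaving arrays out could not change the sign either. The count of negative values is therefore largely set by the design. Adult globin values changed sign in 11 of 111 and the other red cell genes in 2 of 83, in probe sets with a difference near 0 (Hba-a1 and Hba-a2 alone, Hbb-b2 in 1427865_at, and Gata1). The replicate block raised the count of probe sets past the threshold over the whole array from 0 to 3 and changed no call of the 10 genes or of the lists. The globin contrast of -0.67 lay between -0.86 (without control 3) and -0.45 (without control 2) when single arrays were left out. It was -0.55 without replicate 1 of both groups, -0.64 without Hba-x, -0.72 over all probe sets of a gene and -0.84 with probe sets of 1 gene only, the last chosen after seeing the data. In that last setting the adult side held the dim sets of Hba-a1 and Hba-a2 alone (0.0048 and 0.02) and Hbb-b2 in 1427866_x_at (0.88). Its larger size thus came from that 1 Hbb-b2 set, with which the other Hbb-b2 set disagrees. Without knockout 1, Hba-x gave -0.18 in place of -0.59. Without control 2, Hbb-b2 in 1427866_x_at gave 0.39 in place of 0.88 and Alas2 0.15 in place of 0.53. The number of arrays, 3 a group, and signals at the top of the range limit these comparisons.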
